A study of Equus caballus with 4 samples.

Results

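The genes described here encode enzymes that remove superoxide and peroxides: the superoxide dismutases SOD1 and SOD2, catalase (CAT), the glutathione peroxidases GPX1 and GPX4, and the peroxiredoxins PRDX1, PRDX2, PRDX3, PRDX5 and PRDX6. Members were the gene probes of the array whose gene name was exactly 1 of these 10 symbols. The rule found 19 probes of 9 genes among 43603 gene probes, with 10 probes for SOD2, 2 for GPX1 and 1 for each other gene. No probe carried the name GPX4, which was not analysed here.

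The cells were equine satellite cells (ESC), muscle stem cells isolated from m. semitendinosus of the horse, on day 3 of differentiation. The examined cultures had been kept for 24 h with 0.125 µM gamma-oryzanol (GO), a mixture of ferulic acid esters of plant sterols obtained from rice bran, and 3 mM hydrogen peroxide (H2O2) was present in the closing 1 h. Control cultures went without GO. In the study's account they also met H2O2, which the labels leave unsaid, and the GO vehicle (DMSO) was in the medium of both groups. RNA was hybridised on 4 dual-colour Agilent horse arrays of 1 slide, with GO and H2O2 RNA in red (Cy5) and control RNA in green (Cy3) on each. With 0 arrays of swapped dyes, an effect of the dye and an effect of GO cannot be told apart. The cells came from 1 chosen primary line, and the labels name the control RNA replicate 1 on all 4 arrays, although the series counts 4 control replicates. The p-values therefore measure only the spread between these arrays, which may be technical.

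Superoxide dismutases turn superoxide into hydrogen peroxide and oxygen. Hydrogen peroxide is then broken down by catalase in peroxisomes, by glutathione peroxidases at the cost of glutathione, and by peroxiredoxins, whose cysteine is mostly regenerated by thioredoxin. In muscle these enzymes work beside mitochondria and NADPH oxidases, which form superoxide and peroxide during contraction and after injury.

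The probe sequences below show what these signals were read from. Each is open in at least 1 reading frame over its own length, but which frame is coding was not determined. The SOD2 probes A_69_P000615 and A_69_P004150 are shown because they differ at a single base, in capitals, so that both read the same stretch of transcript. The PRDX2 and PRDX3 probes are shown because they belong to related genes. Their capitals mark the 28 bases that are identical over the 57 that overlap when the probes are laid side by side without gaps (49.1%). GPX1 is shown as a gene with a small ratio, and the printed probe had a mean log2 ratio of 0.06, above 0 on all 4 arrays.
SOD2 A_69_P000615: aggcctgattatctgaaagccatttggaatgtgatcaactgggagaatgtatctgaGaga
SOD2 A_69_P004150: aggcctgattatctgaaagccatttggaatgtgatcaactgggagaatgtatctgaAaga
PRDX2 A_69_P069841: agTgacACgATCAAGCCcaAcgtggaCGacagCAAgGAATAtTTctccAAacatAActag
PRDX3 A_69_P094141: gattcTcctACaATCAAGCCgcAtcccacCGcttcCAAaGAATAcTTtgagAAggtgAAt
GPX1 A_69_P056031: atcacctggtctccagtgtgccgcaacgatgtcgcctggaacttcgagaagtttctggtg

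SOD1, PRDX1 and PRDX3 were called lower in cells with GO and H2O2 than in control cells, and no member was called higher. Every value below is a log2 ratio of the GO and H2O2 signal over the control signal on 1 array, or its mean ± SD over 4 arrays. A probe was called changed at an adjusted p under 0.05 in a limma fit over all 24234 probes that stood well above background on all 4 arrays in at least 1 channel. All 19 member probes were among them. Of these, 3 were called, all lower, while 17.1% of all tested probes were called, 9.49% as higher and 7.58% as lower. The share of member probes called was close to that of all tested probes, but 10 of the 19 read SOD2, of which none was called. The mean was below 0 for 15 member probes, against 49.2% of all tested probes, and all 4 arrays had the same sign for 14, against 43.8%. The median of the member means was -0.12, and that of all tested probes was 0.00. SOD2 was read by 10 of the 19 probes, most of which overlap, so the counts are not counts of independent genes. All 10 SOD2 means were below 0, and so were those of SOD1, CAT, PRDX1, PRDX3 and PRDX6. The means of both GPX1 probes, PRDX2 and PRDX5 were above 0, so the direction was mixed without SOD2. Averaged per gene, the median over the 9 genes was -0.13. The limma adjusted p on these averages was under 0.05 for SOD1 (0.0371), PRDX1 (0.0357) and PRDX3 (0.0282) and for no other member. No share of all genes called is given here to set beside this. The changes were small: the mean signal ratio of a member lay between 0.863 and 1.07.

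**Figure D1:**
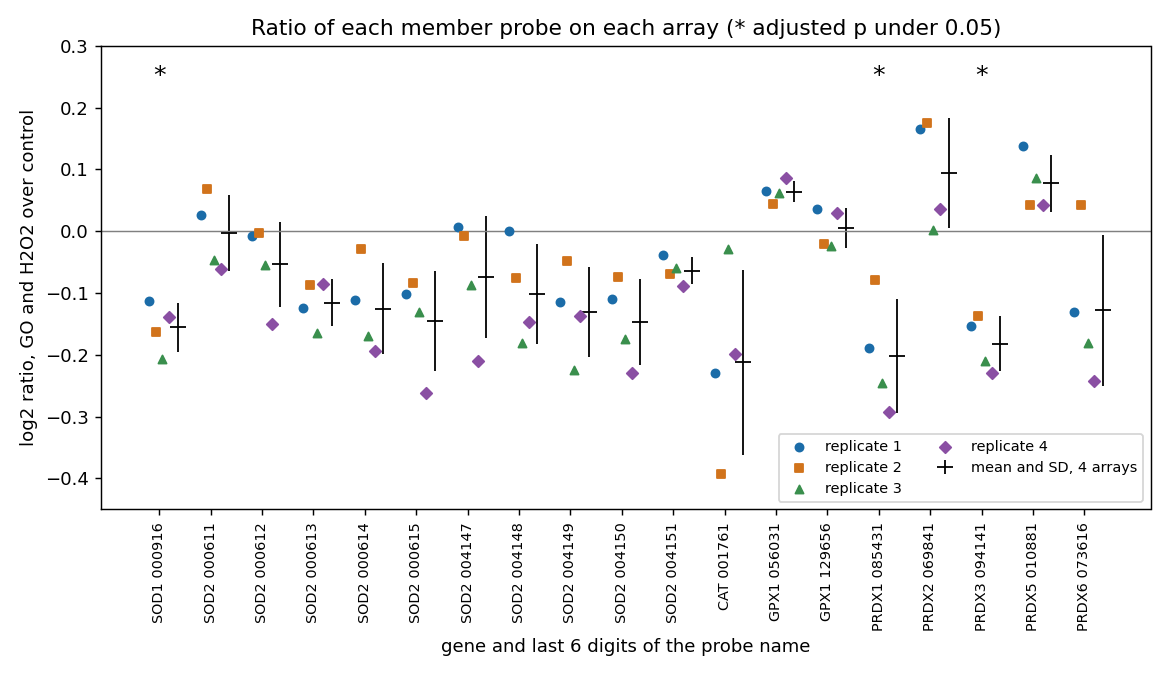
The log2 ratio of GO and H2O2 over control (y axis) is plotted for each of the 19 member probes (x axis), with 1 symbol for each of 4 arrays and the mean ± SD beside them. SOD1, PRDX1 and PRDX3 carry the star for an adjusted p under 0.05, and all 4 of their arrays lie below 0.

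SOD1 is the copper and zinc superoxide dismutase of the cytosol. Its probe gave normalised signals of 17510, 16690, 16930 and 15870 with GO and H2O2 on arrays 1 to 4, and of 18940, 18690, 19520 and 17460 in control. The signal was lower with GO on each array, although the ranges overlapped by the highest treated and the lowest control value. The log2 ratios were -0.11, -0.16, -0.21 and -0.14. SOD1 fell by 0.16 ± 0.04 on the log2 scale (SD, n = 4; signal ratio 0.898; limma adjusted p = 0.0412). The call was lost without any 1 of the 4 arrays, with adjusted p from 0.0756 to 0.121, and also with normexp offset 0 (0.0587), with Agilent's processed signals (0.0959) and with a running median over signal (0.0943). The value was -0.11 with the running median and -0.06 when arrays were only centred on their median. Tested probes of like signal had a median ratio of -0.05 after loess, so part of the SOD1 value is shared with other bright probes.

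SOD2 is the manganese superoxide dismutase of mitochondria. None of its 10 probes was called, and their means ran from -0.15 to -0.00 with adjusted p from 0.0601 to 0.962. At an unadjusted p under 0.05 there were 5 of the 10, against 36.7% of all tested probes; these probes share a transcript and are not independent. All 10 means were below 0, although that of A_69_P000611 turned above 0 with Agilent's processed signals (0.07), without background correction (0.03) and with a running median (0.01). The brightest probe, A_69_P004150, gave 1136, 1189, 1086 and 983.3 with GO and H2O2, and 1226, 1252, 1225 and 1153 in control. Its ratio was below 0 on all 4 arrays, with a mean of -0.15 ± 0.07 (limma adjusted p = 0.0601), and the signal ranges of the groups overlapped. Averaged over its probes, SOD2 had ratios of -0.06, -0.04, -0.13 and -0.16 and a mean of -0.10 ± 0.06 (adjusted p = 0.128).

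The SOD2 probes also show how far probes of a single transcript differ. Of the 10, 9 lie within 140 bases at chr31:8533066-8533205 of EquCab1, and A_69_P004151 starts 7763 bases before them, with a mean of -0.06 ± 0.02. Probes A_69_P000612 and A_69_P004147 have the same sequence, and their ratios differed by -0.01, 0.00, 0.03 and 0.06 on arrays 1 to 4. The pair printed above differs by G57A (A_69_P000615 first, counted from the 5′ end of the probe). Its ratios differed by 0.01, -0.01, 0.04 and -0.03, with a mean of 0.00 ± 0.03. The pairs with G37A and G17A hold the same base at other places of the probe, and their mean differences were 0.01 ± 0.05 and -0.01 ± 0.08. An exact two-sided sign-flip test over 4 arrays gave p = 1, 0.75 and 0.875 (unadjusted). Its smallest possible p is 0.125, so it could not pass 0.05 for any pair and decides nothing here. Across the 3 pairs, the versions of the base gave ratios that differed by no more than 0.13 on any array. By place, the means were -0.14 and -0.15 at the start of the stretch and -0.00 at its end. A further 7 probes, named by accession only, are described as the 3′ end of manganese superoxide dismutase mRNA and are no members. Of these, 5 were too dim to test, and the other 2 had means of -0.14 (adjusted p = 0.122) and -0.11 (adjusted p = 0.177).

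**Figure D2:**
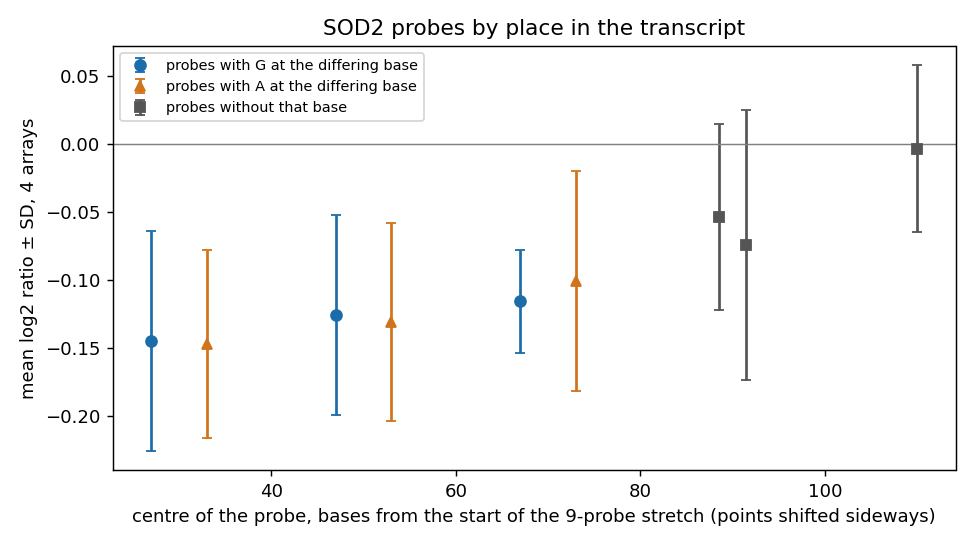
Mean log2 ratio of GO and H2O2 over control (y axis, ± SD over 4 arrays) of the 9 neighbouring SOD2 probes by the place of their centre in the stretch (x axis, bases). Circles and triangles are probes with G or A at the differing base and squares are probes without it; the paired means lie within each other's SD and approach 0 towards the end of the stretch.

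Catalase (CAT) converts hydrogen peroxide into water and oxygen in peroxisomes. Its probe A_69_P001761, listed at chrUn:251963968-251964027, gave 1869, 1754, 1667 and 1675 with GO and H2O2, and 2192, 2303, 1700 and 1921 in control. The ratio was below 0 on all 4 arrays, at -0.23, -0.39, -0.03 and -0.20, and the groups overlapped. The mean of -0.21 ± 0.15 was the lowest of all members, with a 95% confidence interval from -0.36 to -0.06, and it did not pass the threshold (limma adjusted p = 0.059). With array weights it did (adjusted p = 0.0464).

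GPX1, the glutathione peroxidase of cytosol and mitochondria, was read by 2 probes on chr16. Probe A_69_P056031 (chr16:37794608-37794667) gave 10760, 10220, 10880 and 9481 with GO and H2O2, and 10290, 9912, 10420 and 8932 in control. The treated signal was the higher one on each array, by a ratio of 0.06, 0.04, 0.06 and 0.09, and the groups overlapped. The mean was 0.06 ± 0.02 with a 95% confidence interval from -0.02 to 0.15 (limma adjusted p = 0.25). Probe A_69_P129656 (chr16:37794826-37794885) had ratios of 0.04, -0.02, -0.02 and 0.03 and a mean of 0.01 ± 0.03 (adjusted p = 0.93), whose sign turned with median centring and with Agilent's processed signals. The 95% confidence interval of the second probe ran from -0.08 to 0.10. It reflects only the spread between these arrays, and dye and GO effects are not separated, so it does not bound a change by GO.

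Of the 5 peroxiredoxins, PRDX1 and PRDX3 were called lower, and PRDX2, PRDX5 and PRDX6 were not called. PRDX1, a peroxiredoxin of the cytosol, gave 7862, 8320, 7346 and 8478 with GO and H2O2, and 8964, 8784, 8706 and 10390 in control (A_69_P085431, chr2:11290008-11290067). Every treated value was below every control value. The ratios were -0.19, -0.08, -0.25 and -0.29, and PRDX1 fell by 0.20 ± 0.09 (signal ratio 0.870; limma adjusted p = 0.0374). Without array 1, 3 or 4 the adjusted p was 0.125, 0.104 or 0.133. With normexp offset 0, Agilent's processed signals and a running median it was 0.0505, 0.0966 and 0.0536. A run of 36 bases of this probe also occurs in a probe of LOC100071709, which leaves the identity of the PRDX1 signal uncertain to that extent. The LOC100071709 probe had a mean ratio of -0.02 ± 0.10 (adjusted p = 0.842).

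PRDX3 is the peroxiredoxin of mitochondria. Its probe A_69_P094141, printed above and listed over chr1:12587036-12587429, a span of 394 bases for 60 bases of probe, gave 1625, 1765, 1800 and 1603 with GO and H2O2. Control gave 1806, 1941, 2082 and 1880, so that the groups did not overlap. The ratios were -0.15, -0.14, -0.21 and -0.23. PRDX3 fell by 0.18 ± 0.04 (signal ratio 0.881; limma adjusted p = 0.0309), and it was the member called under the most alternatives, 9 of 12. Among these 12, Agilent's processed signals and the series matrix hold the same values and are counted separately. Without array 1, 3 or 4 its adjusted p was 0.107, 0.0867 or 0.114.

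PRDX2, found in the cytosol and abundant in red blood cells, had ratios of 0.16, 0.18, 0.00 and 0.04 (A_69_P069841, chrUn:199776707-199776766). Its signals were 7047, 7347, 6297 and 6285 with GO and H2O2 and 6286, 6504, 6290 and 6130 in control, and the groups overlapped. The mean of 0.09 ± 0.09 did not pass the threshold (limma adjusted p = 0.193). PRDX5, which is found in mitochondria, peroxisomes and cytosol, gave 2973, 2775, 2936 and 2632 with GO and H2O2 and 2701, 2694, 2766 and 2556 in control (A_69_P010881, listed over chr12:14971284-14971494, 211 bases). Its mean was 0.08 ± 0.05 (adjusted p = 0.201), with all 4 arrays above 0 and overlapping groups. PRDX6, which has a single catalytic cysteine and also acts on phospholipids, gave 6649, 6968, 6545 and 6061 with GO and H2O2 and 7283, 6767, 7417 and 7173 in control (A_69_P073616, chr5:9288633-9288692). Its ratio was below 0 on 3 of 4 arrays and 0.04 on array 2, with a mean of -0.13 ± 0.12 (adjusted p = 0.142) and overlapping groups.

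**Figure D3:**
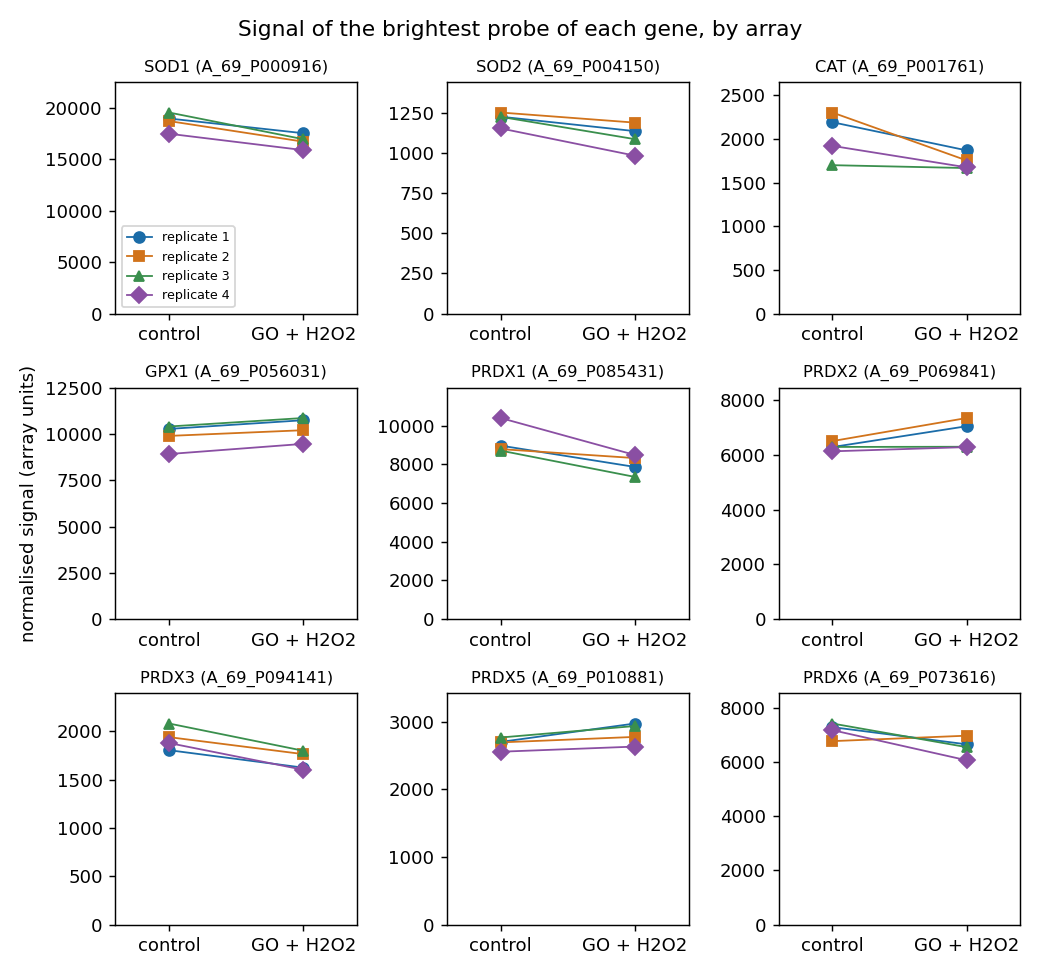
Normalised signal (y axis, array units, from 0) in control and in cells with GO and H2O2 (x axis) for the brightest probe of each of 9 genes, with 1 line for each array. All 4 lines fall for SOD1, SOD2, CAT, PRDX1 and PRDX3, and all 4 rise for GPX1, PRDX2 and PRDX5.

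Within the same arrays, PRDX3 lay below PRDX2 on 4 of 4 arrays, by 0.28 ± 0.05 on the log2 scale, and PRDX1 lay below PRDX2 by 0.30 ± 0.05, also on 4 of 4. Against PRDX5 the differences were 0.26 ± 0.05 for PRDX3 and 0.28 ± 0.11 for PRDX1. These pairs were chosen after their ratios were seen, so no test is given. Such a difference does not show which of the pair changed.

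**Figure D4:**
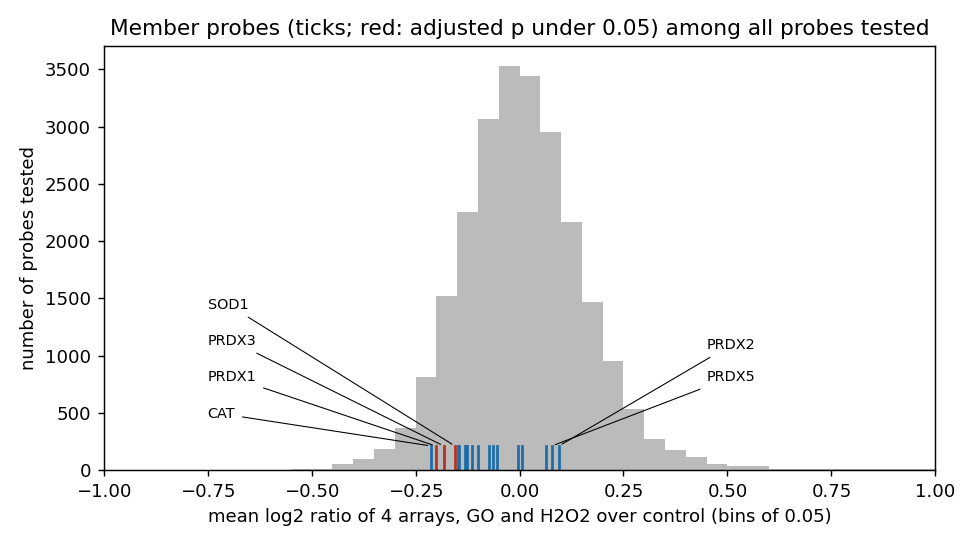
Number of tested probes (y axis) by mean log2 ratio over 4 arrays (x axis, bins of 0.05), with a tick for each member probe, red where the adjusted p was under 0.05. The 19 ticks lie between -0.21 and 0.09, inside the bulk of the 24234 tested probes.

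The wider pathway was covered by 5 lists of 52 genes, of which 48 had a probe and 38 a tested one. Among their 58 tested probes, 6 were called, 1 higher and 5 lower, against the 17.1% of all tested probes given above. The 5 tested probes of other glutathione peroxidases (GPX3, GPX6, GPX7, GPX8) and of PRDX4 held no call. Neither did the 19 of the thioredoxin and glutaredoxin list, most of which read glutaredoxins. At an unadjusted p under 0.05, 20 of the 58 probes passed, against 36.7% of all tested probes.

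For glutathione supply, 1 of 12 tested probes was called. It read GGCT, which breaks down gamma-glutamyl peptides, and fell by 0.21 ± 0.07 (A_69_P079276, adjusted p = 0.0276), or by 0.35 on Agilent's processed signals. The other 4 GGCT probes, with means between -0.11 and -0.03, were not called. The median of the 12 probes was -0.11, with 10 below 0.

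For metal and selenium supply, 3 of 13 tested probes were called. ATOX1, a copper chaperone, rose by 0.16 ± 0.05 (A_69_P061766, adjusted p = 0.04). Its signals were 3614, 3900, 3611 and 3281 with GO and H2O2 and 3172, 3360, 3318 and 3015 in control, with an overlap of the lowest treated value. SEPHS2 makes the selenium donor that selenoproteins such as GPX1 need. Both of its probes were called lower, at -0.27 ± 0.08 (A_69_P018556, adjusted p = 0.0198) and -0.15 ± 0.04 (A_69_P018557, adjusted p = 0.0451). The signals of the first were 321.5, 290.4, 339.4 and 340.1 with GO and H2O2 and 380.2, 373.7, 384.1 and 412.6 in control, without overlap.

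In the list of superoxide and peroxide sources, which also holds the catalase import receptor PEX5, 2 of 9 tested probes were called. Both read NOX4, the NADPH oxidase that releases mainly hydrogen peroxide. They fell by 0.24 ± 0.05 (A_69_P070817, adjusted p = 0.0198) and by 0.22 ± 0.08 (A_69_P070816, adjusted p = 0.0285). On Agilent's processed signals these values were -0.37 and -0.43, and with normexp offset 0 that of A_69_P070816 was -0.32. Without background correction A_69_P070816 was not called (-0.16, adjusted p = 0.057). The signals of A_69_P070817 were 292.7, 300.4, 264.1 and 237.5 with GO and H2O2 and 334.8, 347.9, 311.1 and 294.1 in control. The ratio was below 0 on all 4 arrays, and the groups overlapped. Of 12 alternatives, ATOX1 passed in 6 and the other called pathway probes in 8 or 9. The identical series matrix and Agilent's processed signals are again counted separately. Without array 1, 3 or 4 none of the pathway probes was called, and without array 2 there were 7.

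**Figure D5:**
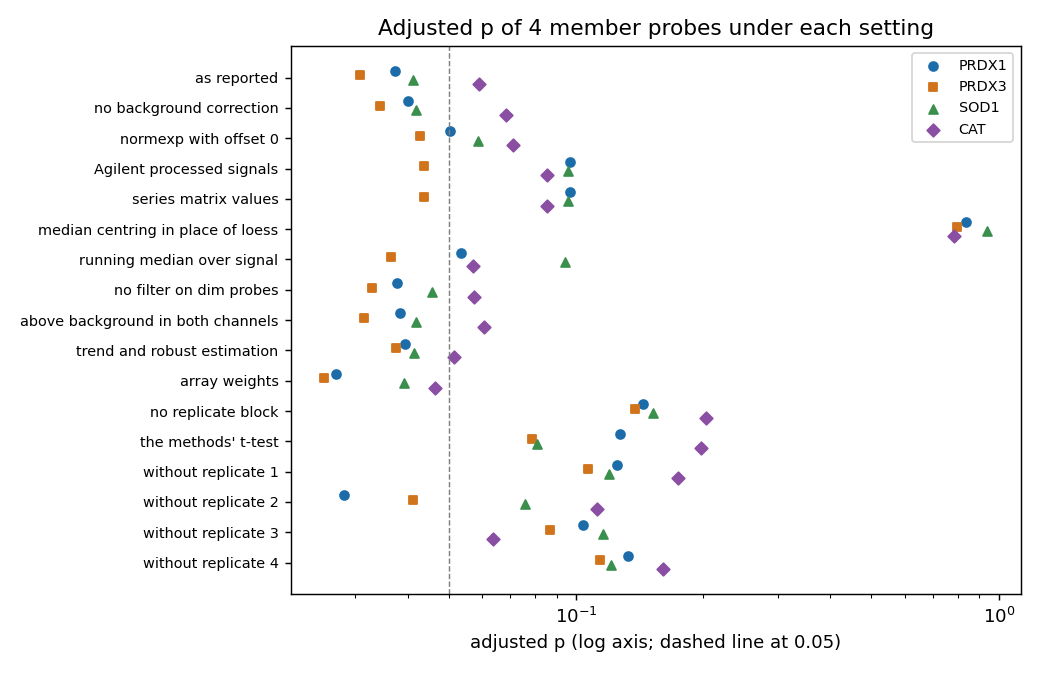
Adjusted p (x axis, log scale, dashed line at 0.05) of PRDX1, PRDX3, SOD1 and CAT under each setting of the processing and without each array (y axis). PRDX3 stays left of the line in 9 of 12 settings, which count the identical series matrix and Agilent's processed signals separately. Median centring, the fit without pairing and the methods' t-test put all 4 genes right of it.

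Most markers of differentiating muscle were called higher with the treatment on the same arrays. For differentiating muscle (ACTA1, MYH3, CKM, TNNT1, MYL1), all 5 genes were above background. Of their 9 probes 8 were called higher, against 9.49% of all tested probes. Most of the called probes read the single gene TNNT1, and ACTA1 was not called (limma adjusted p = 0.0614). The summed signal of the 9 probes was 184400 to 221000 with GO and H2O2 against 154000 to 169300 in control. For muscle precursors and myoblasts (PAX7, MYF5, MYOD1, MYOG, DES, CDH15), 5 of 6 genes were above background, and 3 of 13 probes were called higher. The called probes read MYOG and CDH15, and no probe of MYF5, MYOD1 or DES was called. PAX7, a marker of satellite cells, was never above background on its probe A_69_P087251. The summed signal of these 13 probes, most of it from DES (ratio 0.02), was 23910 to 25050 with GO and H2O2 and 21140 to 24310 in control. Of 5 fibroblast genes 4 were above background, and 1 of 14 probes was called higher, that of THY1 (0.28 ± 0.14, limma adjusted p = 0.029). No probe of COL1A1, COL3A1 or DCN was called, and DCN A_69_P000861 was below 0 on all 4 arrays (-0.10 ± 0.05). The median of the 14 means was 0.04. The sums were 249000 to 297400 and 213300 to 257500, with the largest part from COL3A1 A_69_P002531 (0.23 ± 0.27, not called). Adipocyte markers (4 genes) and endothelial markers (3 genes) were never above background. Of the blood list, 6 of 15 PTPRC probes were called higher, by 0.51 to 0.61, 1 was tested and not called, and 8 were too dim to test, so that probes of this gene disagreed; no probe of the haemoglobin gene HBB was bright enough to test, and CD68 had a ratio of 0.00 (adjusted p = 0.942). The blood sums were 32740 to 37880 and 22300 to 26960. The part of these shifts in the ratios of the enzymes was not tested. In bulk cultures, fewer cells of a type and less RNA per cell cannot be told apart.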

How the data were processed

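The deposited files hold scanned spot intensities of 4 arrays (mean and local background of each channel), read by the authors with Agilent Feature Extraction (10.10.1.1). Per the file headers, the log10 ratio of red over green rests on intensities from which the authors took local background, with detrending across the array and a linear and lowess dye normalisation. The deposited series matrix is identical to it. Probe positions are those of the array annotation (EquCab1); no annotation of exons of that build was used here, and the sequence and position of the SOD1 probe are not reported here.

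Mean intensities were corrected against background medians (normexp, offset 50) and normalised by loess within each array, control spots having weight 0. Outlier spots (7 to 16 gene spots per array) were left out; 0 were saturated. Spots of a probe were averaged, and a probe was tested when well above background on all 4 arrays in at least 1 channel (24234 of 43603, 55.6%). Between 54.9% and 61.4% of gene spots were above background per channel, and for probes with 5 spots the median SD of their log2 ratio within an array was 0.0363 to 0.0716. Printed signals are linear after loess and Aquantile, and include the offset. The mean log2 ratio was tested against 0 with limma 3.58.1 (lmFit, eBayes; R 4.3.3), a two-sided test, and p-values were adjusted by Benjamini and Hochberg over all tested probes; the code was tested on simulated data. The array pairs treated and control RNA, since both were hybridised together. The number of arrays limits the precision.

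Members and gene lists were chosen with earlier results of these data known. Named were all member probes and each called pathway probe. Other background corrections, normalisations, filters and fits were tried, as was leaving out each array. Symbols are the array's own; for 7 list genes without a matching symbol, probes were found by the gene's full name.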

Additional observations from a re-analysis of the deposited data

How the results depend on the processing

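Of all tested probes, 4137 were called, and this count fell to 12 when median centring replaced loess, to 594 when the 2 channels of an array were not paired (the fit with no replicate block) and to 5 under the methods' t-test (6931 at an unadjusted p under 0.05) and lay from 0 to 3902 when an array was left out. It was 2 without array 1, 38 without array 3 and 0 without array 4 (limma; 6695 at an unadjusted p under 0.05). Member probes called, 3 as reported, were 1 with normexp offset 0, 1 in the series matrix, 1 on Agilent's processed signals, 1 with a running median over signal, 5 with array weights (CAT and SOD2 A_69_P004150 besides), and 0 with median centring, without the pairing of channels and with the methods' t-test (at an unadjusted p under 0.05: 0, 6 and 11). Leaving out an array gave 0 to 2, with 0 without array 1, 3 or 4. Pathway probes called, 6 as reported, were 11 in the series matrix and 11 on Agilent's processed signals, 0 with median centring, 0 without the pairing of channels, 0 with the methods' t-test, and 0 to 7 with an array left out.

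Among 27 named probes the direction turned only for GPX1 A_69_P129656 and SOD2 A_69_P000611. For the first, the mean was -0.0035 on Agilent's processed signals and equally in the series matrix, -0.0011 under median centring, and between -0.0047 and 0.0153 without an array (-0.0047 without array 1, -0.0027 without array 4). For SOD2 A_69_P000611 it was 0.030 without background correction, 0.065 on Agilent's processed signals and equally in the series matrix, 0.010 with a running median, and between -0.0273 and 0.0162 without an array (0.011 without array 3). The cause was not tested. The other alternatives (no filter on dim probes, both channels above background, trend and robust estimation, no background correction) left the member count at 3.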
